A study of Homo sapiens with 6 samples.

Results

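The FOS and JUN genes encode the basic leucine zipper proteins that pair to form AP-1. Their 7 members, FOS, FOSB, FOSL1, FOSL2, JUN, JUNB and JUND, were matched by gene symbol in a table of 28862 genes counted in SH-SY5Y cells, a human neuroblastoma line with catecholaminergic features, and all 7 were found. The family was selected on the difference between the groups of this study, in which FOSB and FOS stood out, so its own differences are given as a description and without p-values. The study holds 6 libraries of stranded mRNA sequencing: 3 from cells with a control plasmid and 3 labelled as overexpressing SMN1, the survival motor neuron gene, with no other genotype, agent or time in the labels. The sources used here do not say how SMN1 was delivered or whether the libraries of a group are separate cultures. The p-values therefore rest on the spread among libraries alone, which may be technical spread.

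FOS proteins cannot pair with each other and need a JUN partner, whereas JUN proteins also pair among themselves. The pairs bind the site TGACTCA, or TRE, and with other partners the cAMP response element TGACGTCA. FOS, FOSB and JUNB are textbook immediate early genes, switched on for a short time when growth factors, depolarisation or stress activate MAP kinases, the serum response factor SRF and CREB. JUND is usually expressed without stimulation, and FOSL1 and FOSL2, the Fra proteins, tend to follow later and last longer. In neurons FOS is the standard marker of recent activity.

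The libraries held 30379242 to 40275498 reads assigned to genes. SMN1 read counts were 602, 624 and 568 in the controls and 494, 691 and 547 in the libraries labelled SMN1 overexpression. Scaled to depth the gene was 1.25-fold lower in the latter (log2 fold change -0.32, SE 0.06, edgeR adjusted p = 9.40e-05), which goes against the label. Whether reads from an introduced SMN1 sequence were counted is not known, so this value does not show whether SMN1 was overexpressed. The libraries labelled SMN1 overexpression are therefore called the SMN1-labelled libraries, and each direction is between libraries as labelled. Of 14 markers of adrenergic neuroblastoma, the sympathetic neuron-like state of this line, 13 passed the filter on low counts, among them HAND2 at 2070 ± 35.4 CPM in the control libraries (mean ± SD, n = 3). The exception was TH, the tyrosine hydroxylase gene, with 0 to 9 reads per library. Of the 15829 genes tested, 56.2% differed between the groups at an edgeR adjusted p of at most 0.05, which is what "called" means here: 28.0% were higher and 28.2% lower in the SMN1-labelled libraries, and the median log2 fold change was 0.00.

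The start regions of the members that moved most, and of those that moved least or the other way, are shown first. Induction of these genes is controlled in part there. RefSeq start windows of 300 bases, 250 before and 50 after the start site on GRCh38.p14, were at hand for 6 of the 7 members, all but FOSL1. The 250 bases before the start are printed 5′ to 3′ for FOS and FOSB, which had the largest decreases, for JUN and for FOSL2, the member that was higher. All distances are to the RefSeq start. By the GENCODE v29 gene bounds given below, the JUN and FOSL2 stretches lie inside the gene and the FOS stretch overlaps it. Capitals mark TATAAA, TGACNTCA and the 6 bases TGACGT, the shared part of the cAMP response element.
FOS, chr14:75278578-75278827, plus strand: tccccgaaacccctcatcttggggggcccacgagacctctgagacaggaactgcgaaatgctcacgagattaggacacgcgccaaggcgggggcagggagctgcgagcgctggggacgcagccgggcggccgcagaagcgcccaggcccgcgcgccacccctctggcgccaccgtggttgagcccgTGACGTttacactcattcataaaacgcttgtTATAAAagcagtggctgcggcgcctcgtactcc
FOSB, chr19:45467746-45467995, plus strand: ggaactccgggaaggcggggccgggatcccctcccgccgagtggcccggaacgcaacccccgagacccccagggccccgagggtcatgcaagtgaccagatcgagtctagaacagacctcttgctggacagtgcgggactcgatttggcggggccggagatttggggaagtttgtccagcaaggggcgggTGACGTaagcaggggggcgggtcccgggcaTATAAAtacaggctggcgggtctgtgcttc
JUN, chr1:58784048-58784297, minus strand: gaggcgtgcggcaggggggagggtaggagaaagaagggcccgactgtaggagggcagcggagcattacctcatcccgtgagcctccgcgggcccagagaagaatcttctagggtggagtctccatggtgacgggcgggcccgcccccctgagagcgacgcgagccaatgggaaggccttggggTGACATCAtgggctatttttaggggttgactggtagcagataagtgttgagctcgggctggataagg
FOSL2, chr2:28392608-28392857, plus strand: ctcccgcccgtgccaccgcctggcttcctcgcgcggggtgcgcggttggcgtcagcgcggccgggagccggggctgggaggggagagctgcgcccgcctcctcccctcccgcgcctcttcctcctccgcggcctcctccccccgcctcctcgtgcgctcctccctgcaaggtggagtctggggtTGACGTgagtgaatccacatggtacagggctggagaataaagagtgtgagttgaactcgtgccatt

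TGACGT lies 64 bases before the start in FOS, 60 in FOSB and 66 in FOSL2. JUN has TGACATCA, a TGACNTCA match, 67 bases before its start, and JUND has TGACGTCA 200 bases before its start. TGACGT was searched on both strands after the sequences had been seen. It was found in 4 of the 6 windows and in 7.98% of 35116 windows of the same length. In JUND it overlaps the TGACGTCA and also lies apart from it, on the other strand, 87 bases before the start. TGACNTCA was found in 2 of the 6 (JUN and JUND) and in 7.72% of all windows. TATAAA was found in FOS, FOSB and JUNB, 33, 30 and 31 bases before the start, and in 11.5% of all windows. TGACTCA occurred in FOSL2 alone, at base 5 after the start, and in 4.95% of all windows. GGGCGG was found in 5 of the 6, all but JUNB, and in 45% of all windows. No CArG box, the site of SRF, fell within these windows, and 1.29% of all windows held one. The FOS and FOSB windows thus share TATAAA and TGACGT at like distances, while the FOSL2 and JUND windows have TGACGT without TATAAA. These are matches of letters and say nothing of binding.

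In the SMN1-labelled libraries 6 of the 7 family members were called lower and 1, FOSL2, higher, against 28.2% and 28.0% of all genes tested. No member's libraries overlapped between the groups, which also held for 60.7% of all genes tested. Nothing is read from these counts, since the same contrast was used to choose the family. The decreases fell into 3 sizes, with FOS and FOSB more than 10-fold lower, FOSL1 near 2-fold and the JUN class near 1.5-fold.

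**Figure D1:**
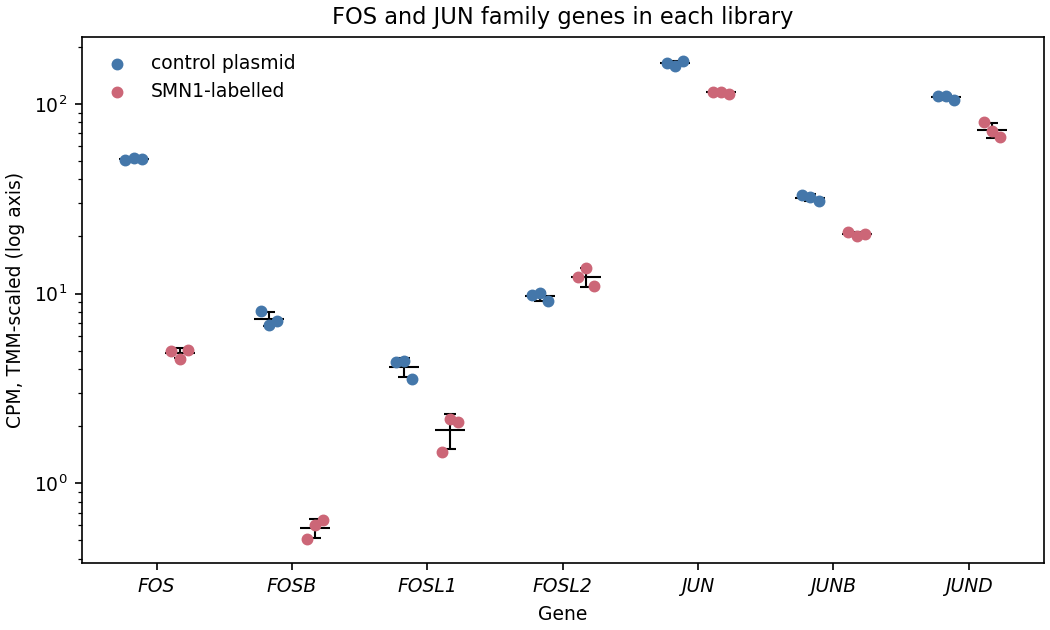
CPM of each family gene in each library on a log axis, with 3 control libraries (blue), 3 SMN1-labelled libraries (red), and black bars for mean ± SD. FOS falls from 51.2 to 4.85 CPM and FOSB from 7.37 to 0.582 CPM, the JUN class moves less, and FOSL2 is the one gene whose red points lie above the blue ones.

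FOS, the founding member of the family, had 1518, 1584 and 1484 reads in the controls against 167, 188 and 166 in the SMN1-labelled ones. As CPM, read counts scaled to library size with TMM factors, these were 50.5, 51.9 and 51.1 against 4.99, 4.52 and 5.05. All control libraries were thus about 10 times above all SMN1-labelled libraries, a 10.6-fold decrease (log2 fold change -3.40, SE 0.06). FOS stood at the 84.9 to 85.3 percentile of the tested genes' FPKM in the controls and at the 41.2 to 43.3 percentile in the SMN1-labelled ones. It therefore moved from among the well expressed genes to below the middle of the range.

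FOSB, the closest relative of FOS and the source of the long-lived ΔFosB protein in stimulated neurons, had 242, 209 and 209 control reads against 17, 25 and 21. Its CPM were 8.06, 6.85 and 7.20 in the controls against 0.508, 0.601 and 0.639 in the SMN1-labelled libraries. The groups lay far apart, and the 12.6-fold decrease (log2 fold change -3.65, SE 0.15) was the largest of any gene tested, with FOS next (ranks 1 and 2 of 15829). FOSB and FOS decreased nearly in proportion. There were 15.9, 13.2 and 14.1 FOSB reads per 100 FOS reads in the controls against 10.2, 13.3 and 12.7 in the SMN1-labelled ones, so the ranges of this ratio overlapped. The FOSB decrease is set by few reads, 63 in all over the SMN1-labelled libraries, and on log2(FPKM + 1), where low values are compressed, its log2 fold change was -1.0. FOSB overlaps ERCC1 on the other strand in GENCODE v29, and the sources used here do not say whether the counting used strand.

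FOSL1, which encodes Fra-1, a protein without the activation domain of FOS, had CPM of 4.36, 4.39 and 3.55 in the control libraries. In the SMN1-labelled libraries it had 1.46, 2.19 and 2.10. The groups did not overlap, and the gene was 2.12-fold lower (log2 fold change -1.09, SE 0.15). The first SMN1-labelled library was the lowest, with 49 reads against 91 and 69, and without it the log2 fold change was -0.93. On log2(FPKM + 1) it was -0.59.

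FOSL2, which encodes Fra-2, went the other way. Its CPM were 9.85, 10.1 and 9.10 in the controls against 12.2, 13.7 and 10.9 in the SMN1-labelled libraries. Every SMN1-labelled library was above every control library, though the lowest of them was close to the highest control library, and the increase was 1.27-fold (log2 fold change 0.34, SE 0.08). Leaving out single libraries moved that log2 fold change between 0.25 and 0.42, always past the threshold.

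JUN, the main partner of FOS and a target of JNK kinases, had CPM of 164, 158 and 169 in the controls against 116, 116 and 113 in the SMN1-labelled libraries. JUNB, an early response member with weaker activating capacity, had 33.1, 32.4 and 30.6 against 21.1, 20.2 and 20.7. JUND, the constitutive member, had 110, 110 and 105 against 80.1, 71.9 and 67.0. The 3 genes were lower by similar amounts, JUN 1.42-fold (log2 fold change -0.51, SE 0.04), JUNB 1.56-fold (-0.64, SE 0.05) and JUND 1.49-fold (-0.57, SE 0.05), so the smaller decrease was not limited to the constitutive member.

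The JUN class decreases moved more with a joint correction for GC content and length than those of FOS and FOSB did, and the parts of GC content and length in that were not tested separately. JUND and JUNB, single-exon genes with 69.7% and 64.9% GC in their longest annotated transcript, lie in the most GC-rich decile of the tested genes (10 of 10), whose median log2 fold change was -0.25. JUN and FOSB lie in decile 8 (median -0.15), FOSL1 in decile 9 (-0.18) and FOS and FOSL2 in decile 7 (-0.09). With a correction for GC content and length within each library, the log2 fold change became -0.21 for JUND, -0.30 for JUNB and -0.33 for JUN. It was -3.28 for FOS, -3.57 for FOSB, -0.78 for FOSL1 and 0.34 for FOSL2. All 7 calls kept their direction and their side of the threshold under that correction, but JUND and JUNB were then closer to no change than to their uncorrected values.

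**Figure D2:**
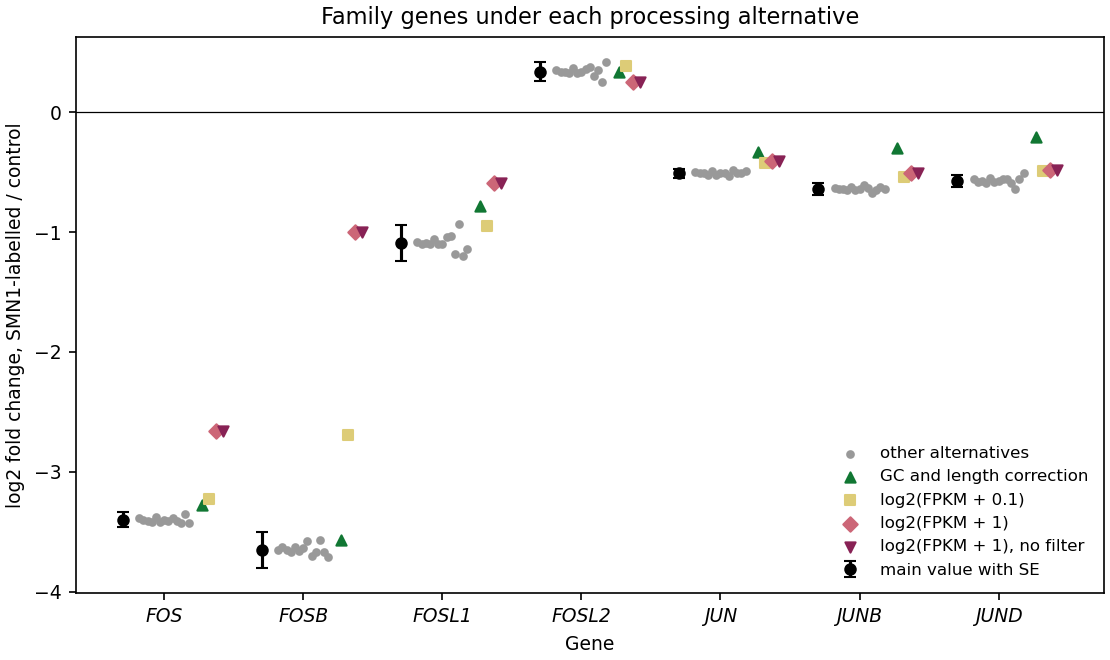
Log2 fold change of each family gene, with the main value and its SE (black) and the values under 17 processing alternatives, of which 4 are drawn with their own symbols. Values for FOSB reach from -3.71 to -1.0, the latter with a pseudocount of 1 on FPKM, JUNB and JUND move toward 0 with the GC and length correction (green triangles), and no gene crosses 0.

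Compared per length, in the FPKM values deposited by the authors, the JUN class made up most of the family in every library. In the control libraries JUND was highest (51.4 ± 2.03 FPKM, n = 3), followed by JUN (41.3 ± 1.0), JUNB (16 ± 0.837), FOS (14.7 ± 0.272) and FOSL1 (1.99 ± 0.251). FOSL2 (1.15 to 1.30 FPKM) and FOSB (1.13 to 1.33 FPKM) overlapped at the bottom of the order. In the SMN1-labelled libraries JUND (36.8 ± 3.11 FPKM), JUN (30.9 ± 0.392) and JUNB (10.9 ± 0.210) kept that order. FOSL2 (1.48 to 1.86 FPKM) and FOS (1.38 to 1.55 FPKM) now overlapped, above FOSL1 (0.75 to 1.13 FPKM), and FOSB was at 0.09 to 0.11 FPKM.

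The FOS class, which supplies the partner for FOS:JUN pairs, shrank within the family. Its 4 genes took 15.0% ± 0.220 of the summed family FPKM in the controls and 5.12% ± 0.426 in the SMN1-labelled libraries. Per unit of FOS class FPKM there were 5.74, 5.57 and 5.75 units of JUN class FPKM in the controls against 20.6, 17.5 and 17.8 in the SMN1-labelled ones. The make-up of the FOS class changed as well. FOS was 76.8% ± 1.38 of it in the controls and 35.1% ± 3.77 in the SMN1-labelled libraries, while FOSL2 went from 6.48% ± 0.228 to 39.2% ± 3.66 and FOSL1 from 10.4% ± 1.03 to 23.3% ± 3.88. The share of FOSL1 thus grew although its own level was lower. Within the JUN class the shares of JUN (38% ± 1.46 and 39.3% ± 1.47), JUNB (14.7% ± 0.472 and 13.9% ± 0.584) and JUND (47.3% ± 1.01 and 46.7% ± 1.94) overlapped between the groups. In bulk RNA a smaller number of cells that express a gene and less RNA per cell cannot be told apart, and mRNA shares are not protein shares. The order of close genes depends on the gene length used: per base of the longest GENCODE v29 transcript FOS (15.6%) stood above JUNB (11.6%) in the control libraries, and FOS (2.55%) above FOSL2 (2.06%) in the SMN1-labelled ones.

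**Figure D3:**
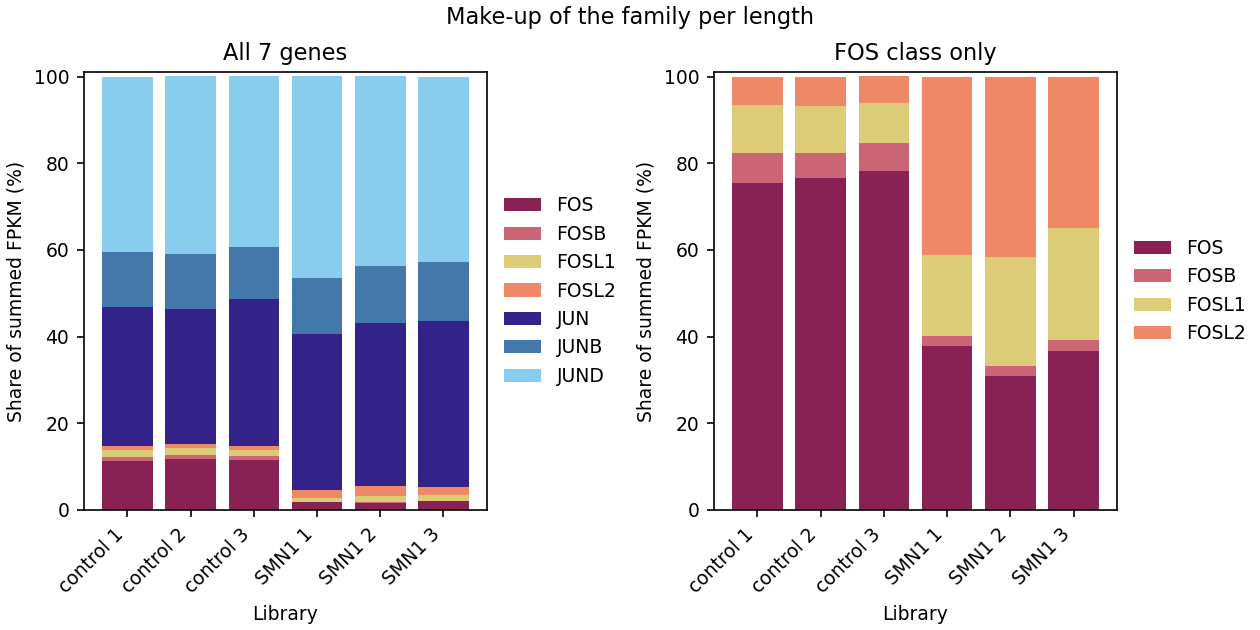
Share of each gene in the summed FPKM of the family (left) and of the FOS class alone (right), in percent, 1 bar per library. The FOS class goes from 15.0% to 5.12% of the family, and within it FOS goes from 76.8% to 35.1% while FOSL2 goes from 6.48% to 39.2%.

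The spread between libraries of a group was not used to choose the family. FOS had a coefficient of variation of 1.32% in the controls and 5.97% in the SMN1-labelled libraries. Its chi-square per degree of freedom against counting noise within groups was 0.468, where 1 is counting noise alone up to scatter, against a median of 1.47 over all tested genes. FOSB (0.923) and JUNB (0.977) were also near counting noise. JUND had 11.1, above 96.5% of tested genes, and its SMN1-labelled libraries ranged from 67.0 to 80.1 CPM. JUN (3.30), FOSL2 (3.41) and FOSL1 (2.23) were also above the median. This measure grows with the number of reads. In relative terms FOSB, with few reads, varied more than FOS, with coefficients of variation of 8.44% and 11.6%.

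Over the 6 libraries the gene whose profile was nearest to FOS was FOSB, and the reverse, with a root mean square distance of 0.19 between centred log2 CPM, among 10367 other genes that reached 5 CPM in at least 1 group. Next for both came GPNMB, a melanosomal and lysosomal glycoprotein gene (distance 0.47 from FOS and 0.58 from FOSB), and ADAMTS2, a procollagen protease gene (0.50 and 0.60). GPNMB was at 10.7 ± 0.363 and 1.85 ± 0.307 CPM and ADAMTS2 at 5.46 ± 0.409 and 0.996 ± 0.168 CPM in the control and SMN1-labelled libraries. Nearest to JUN were the respiratory chain genes COX4I1 and COX6A1 (both 0.01) and RRP1, a ribosome biogenesis gene (0.02), whose log2 fold changes were -0.50, -0.49 and -0.54. The distance is taken on log2 values that are not scaled, so it mostly compares sizes of change. That FOS and FOSB were nearest to each other follows from the differences on which the family was selected, and these distances are a description only.

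The genomic neighbours of the members follow from position and were not chosen on values. In GENCODE v29 on GRCh38 FOS lies on chromosome 14 (75278774 to 75282230, plus strand), FOSB on chromosome 19 (45467995 to 45475179, plus) and FOSL1 on chromosome 11 (65892049 to 65900573, minus). FOSL2 lies on chromosome 2 (28392448 to 28417312, plus) and JUN on chromosome 1 (58780788 to 58784327, minus). JUNB (12791496 to 12793315, plus) and JUND (18279760 to 18281622, minus) are also on chromosome 19. JUN, JUNB and JUND have 1 exon and the FOS class genes have 4 in their longest transcripts.

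Of 16 nearest or overlapping genes that passed the filter, 9 were called lower and 1 higher (median log2 fold change -0.29), where 28.2% and 28.0% of all genes tested were. With the GC and length correction the lower calls of CCDC85B and GET3 were lost, and RTN2 was called higher. Beside FOS, TMED10, a gene of vesicle traffic 102143 bases away, rose (54.9 ± 0.0662 to 71.8 ± 4.01 CPM), a log2 fold change of 0.38 with an SE of 0.04 (edgeR adjusted p = 4.74e-08). On its other side, 145486 bases away, JDP2, a dimer partner that represses AP-1, fell (20.3 ± 0.669 to 13.2 ± 1.50 CPM), a log2 fold change of -0.63 with an SE of 0.07 (edgeR adjusted p = 6.00e-08). RTN2, 10110 bases from FOSB, was at 65.7 ± 0.881 and 64.0 ± 1.65 CPM (edgeR adjusted p = 0.416), and the DNA repair gene ERCC1, which overlaps FOSB, fell by 0.41 on the log2 scale. No neighbour could have fallen as far as FOS or FOSB, which had the largest falls of all genes tested. CCDC85B, 414 bases from FOSL1, fell by 0.46, a call lost with the GC and length correction (edgeR adjusted p = 0.112, with a range of 4.93e-21 to 0.112 over its alternatives). Beside FOSL2, which was higher, BABAM2 fell by 0.79. The JUN neighbours MYSM1 and PHBP3 and the JUND neighbour IQCN were not called, and RTN2 was higher with the GC and length correction (log2 fold change 0.21, edgeR adjusted p = 0.000129). LSM4 beside JUND fell by 0.57 and the peroxiredoxin gene PRDX2 beside JUNB by 0.68, both near the values of those members. HOOK2, which overlaps JUNB on the other strand, fell by 0.23. GET3 near JUNB fell by 0.24 without and stood at 0.05 with the GC and length correction, where it was not called (edgeR adjusted p = 0.261). POLR1G near FOSB fell by 0.33, and C11orf68 and AC097724.3 were not called. Without the first SMN1-labelled library C11orf68 was called lower (log2 fold change -0.4, edgeR adjusted p = 0.0254).

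**Figure D4:**
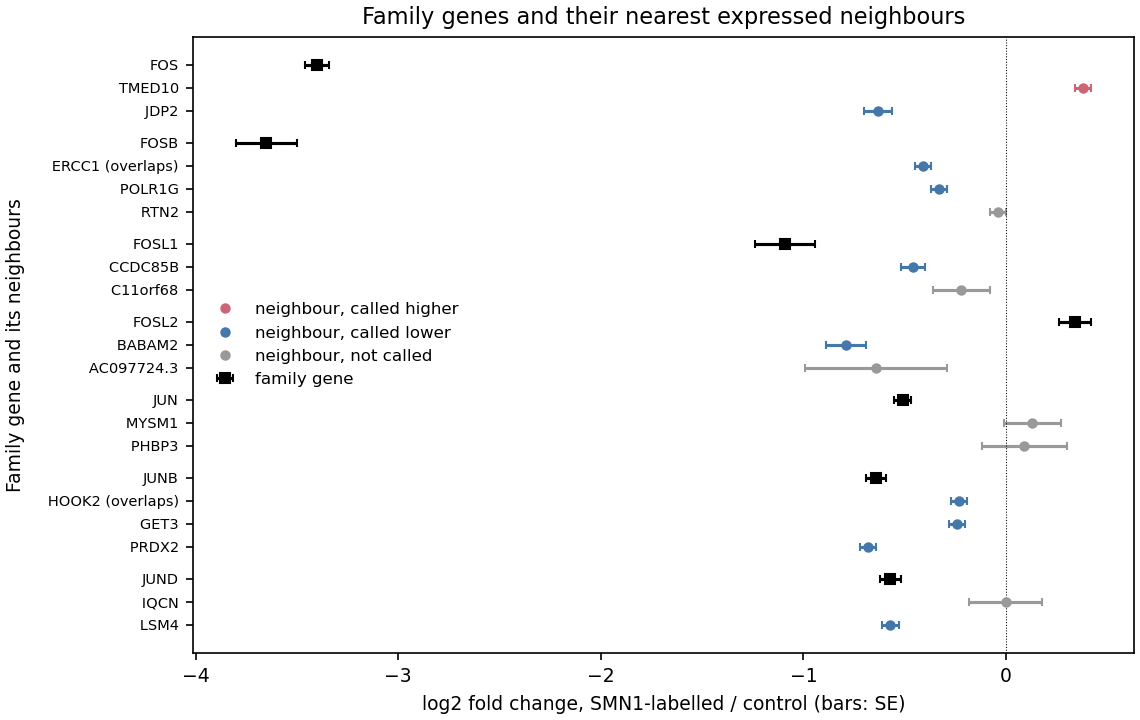
Log2 fold change with SE of each family gene (black squares) and of its nearest expressed genes on the same chromosome (circles; red called higher, blue called lower, grey not called). FOS and FOSB lie at -3.40 and -3.65, the largest falls of all genes tested, and the lowest of their neighbours is JDP2 at -0.63.

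Around the family, 9 lists of pathway genes were described from the same fit, with 179 distinct genes tested, of which 71 were called higher and 51 lower. The lists share some genes, ATF3, CD44 and GADD45B among them, and were chosen with earlier results of these data known. Counts are read beside the 28.0% higher and 28.2% lower of all genes and the median of 0.00. With the GC and length correction 3582 of 15829 genes were called higher and 3962 lower, and counts given with it are read beside those.

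Dimer partners of FOS and JUN proteins moved both ways, in shares near those of all genes tested. Of 14 tested 5 fell and 4 rose (median log2 fold change -0.15). ATF3, a stress-induced partner that often represses, fell 1.90-fold (19.6 ± 0.503 to 10.3 ± 0.242 CPM, edgeR adjusted p = 1.78e-11), and ATF4, the integrated stress response factor, fell 1.43-fold. NFE2L2, which encodes the oxidative stress factor NRF2, rose 1.28-fold (13.6 ± 0.462 to 17.4 ± 0.152 CPM, edgeR adjusted p = 3.35e-05), and the small MAF gene MAFG rose 1.14-fold. With the GC and length correction 5 fell and 2 rose.

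Transcription factors that switch FOS and JUN on rose or were not called, with 1 exception. Of 20 activators and coactivators 10 rose and 1 fell (median log2 fold change 0.15). The GC and length correction left 8 higher and 1 lower, with a median of 0.09. SP1, a factor of GC-rich promoters, rose 1.41-fold (32.5 ± 1.81 to 45.9 ± 1.58 CPM, edgeR adjusted p = 4.39e-09) and MEF2D, which acts at the JUN promoter, 1.22-fold. SRF, named after its value was seen, rose 1.24-fold (41.8 ± 2.36 to 51.9 ± 3.02 CPM, edgeR adjusted p = 7.17e-06), while its ERK-responsive partner ELK1 was at 39.8 ± 1.78 and 40.6 ± 1.23 CPM (edgeR adjusted p = 0.598). The member that fell was CREM, of the CREB family (14.3 ± 1.19 to 12.1 ± 0.471 CPM, edgeR adjusted p = 0.00688). That call was lost without the first control library (adjusted p = 0.0761) and on FPKM values (0.136 to 0.26 with limma).

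The MAP kinase cascade, which carries signals to these factors, moved both ways by small amounts. Of 33 genes 16 rose and 5 fell (median log2 fold change 0.16). The GC and length correction left 13 higher and 4 lower, with a median of 0.08. MAP2K4, a kinase upstream of JNK, rose 1.65-fold (5.34 ± 0.212 to 8.84 ± 0.549 CPM, edgeR adjusted p = 3.20e-07), and RPS6KA2, an ERK-activated kinase gene, rose 1.27-fold. MAPK12, which encodes p38γ, fell 1.50-fold (21.7 ± 0.678 to 14.5 ± 1.15 CPM, edgeR adjusted p = 3.03e-08), and the ERK1 gene MAPK3 fell 1.36-fold. The 3 JNK genes MAPK8, MAPK9 and MAPK10, named after their values were seen, were not called (edgeR adjusted p = 0.0764, 0.053 and 0.789).

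Genes that both respond to and restrain MAP kinases moved both ways as well. Of 15 tested 6 rose and 2 fell, with a median of 0.01. DUSP4, a nuclear MAP kinase phosphatase gene, rose 1.54-fold (123 ± 3.26 to 189 ± 1.90 CPM, edgeR adjusted p = 5.45e-13) and DUSP16, which acts on JNK, 1.21-fold. DUSP1, an immediate early phosphatase gene, fell 1.48-fold (11.8 ± 0.459 to 7.98 ± 0.583 CPM, edgeR adjusted p = 1.81e-06). DUSP7 fell 1.17-fold, a call lost without the second control library (edgeR adjusted p = 0.10), without the second SMN1-labelled library (0.0517), with DESeq2 (0.094), with the GC and length correction (0.152) and on FPKM values.

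Other early response genes fell more often than they rose. Of 24 tested 13 fell and 4 rose (median log2 fold change -0.41). EGR1, a zinc finger factor induced alongside FOS, fell 3.27-fold (141 ± 0.923 to 43.2 ± 1.26 CPM, edgeR adjusted p = 1.98e-20), a smaller fold than those of FOS and FOSB, and PPP1R15A, the eIF2 phosphatase subunit gene, 1.57-fold. MCL1, a survival factor, rose 1.52-fold (73.7 ± 2.13 to 112 ± 1.53 CPM, edgeR adjusted p = 2.53e-12) and the antiproliferative BTG2 1.44-fold. Several classic members were scarcely present in either group: EGR4, NR4A2 and KLF4 had 0 or 1 read in every library and were not tested. With the GC and length correction 13 fell and 5 rose, with a median of -0.29.

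**Figure D5:**
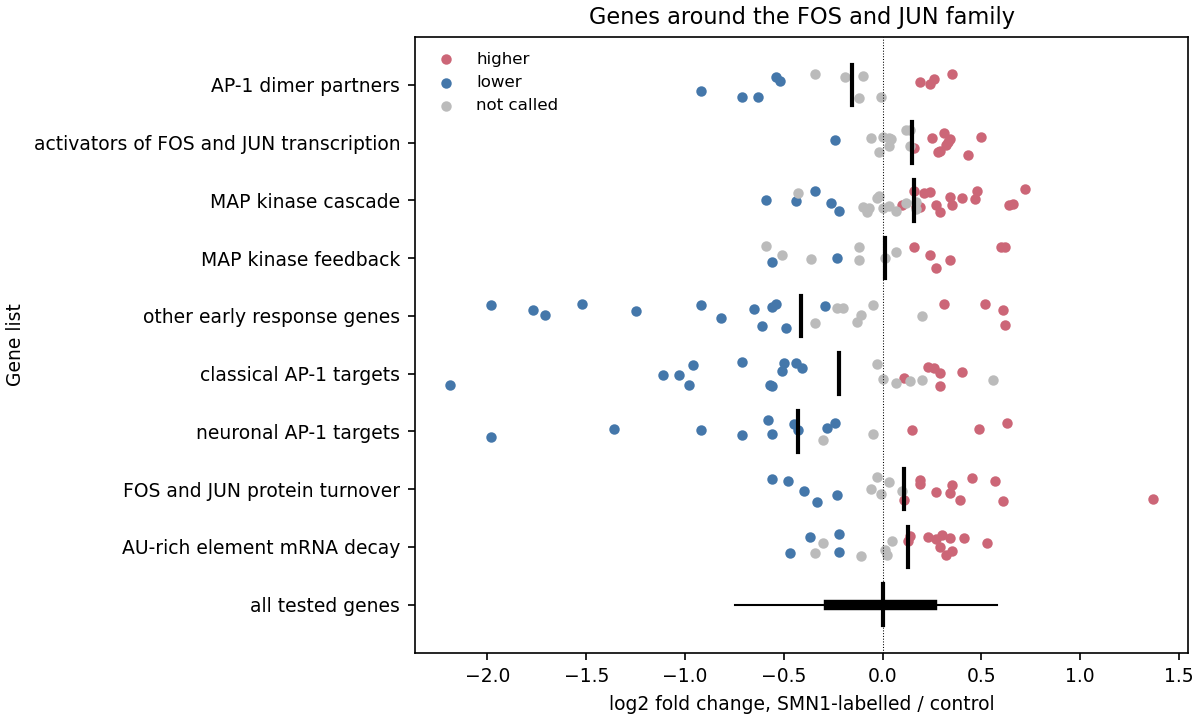
Log2 fold change of each tested gene in 9 lists (points; red called higher, blue called lower, grey not called), with the median of each list (black line). The bottom row gives all tested genes, with a thick bar from the 25 to the 75 percentile (-0.27 to 0.25) and a thin bar from the 5 to the 95 percentile (-0.75 to 0.58). The medians of the early response genes (-0.41) and neuronal AP-1 targets (-0.43) lie to the left, and those of the activators (0.15) and the MAP kinase cascade (0.16) to the right.

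Genes known to be controlled through AP-1 sites were more often lower than higher. Among 24 classical targets of proteolysis, growth, adhesion and inflammation, 12 fell and 6 rose (median log2 fold change -0.22). The GC and length correction left 9 lower and 6 higher, with a median of -0.16. VIM, the vimentin gene, fell 2.04-fold (189 ± 3.25 to 92.6 ± 1.49 CPM, edgeR adjusted p = 8.96e-17), and MMP2, a gelatinase gene, fell 1.41-fold (453 ± 5.70 to 320 ± 7.26 CPM). The angiogenic factor gene VEGFA rose 1.22-fold (160 ± 0.210 to 196 ± 1.75 CPM, edgeR adjusted p = 7.14e-08), and TXNRD1, a thioredoxin reductase gene, 1.19-fold, a call lost with the GC and length correction (adjusted p = 0.14). The collagenase and stromelysin genes held up as standard AP-1 targets were close to absent: MMP3 and MMP10 had at most 2 reads in any library, and MMP1 was at 0.543 ± 0.244 and 0.257 ± 0.0814 CPM.

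Of 15 neuronal AP-1 targets 10 fell and 3 rose (median log2 fold change -0.43). GAL, the neuropeptide galanin gene, fell 2.57-fold (39.8 ± 1.82 to 15.5 ± 1.08 CPM, edgeR adjusted p = 3.68e-15). CHGA, which encodes the secretory granule protein chromogranin A, rose 1.11-fold from a far higher level (13900 ± 641 to 15400 ± 430 CPM, edgeR adjusted p = 0.000862). With DESeq2 and on filtered FPKM values 1 gene of this list rose. The GC and length correction left 9 lower and 2 higher, with a median of -0.27. Whether any of these target differences follows from the AP-1 genes was not tested.

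Markers of a mesenchymal neuroblastoma state, for which FOSL1 and FOSL2 are known as characteristic factors, were mostly lower as well. Of 12 such markers 10 were tested, 6 fell and 1 rose (median log2 fold change -0.41), and VIM and CD44 are also in the target lists. Their summed level was 995 to 1030 CPM in the controls and 723 to 792 CPM in the SMN1-labelled libraries. Most of it came from TWIST1, which was at 704 ± 17.7 and 565 ± 37.0 CPM. RUNX1 and RUNX2, defining factors of that state, had at most 17 reads in any library. The summed level of 14 adrenergic markers was 26500 to 28300 CPM and 33800 to 35000 CPM, with 5 of 13 tested higher and 7 lower. With the GC and length correction 6 were higher and 4 lower, and on FPKM values 6 were higher and 3 or 4 lower. The balance of this list thus turned, but on FPKM values the calls over all genes leaned the same way. Of those calls 61.9% to 62.6% were higher on FPKM values and 47.5% with the correction, against 49.8% in the main fit. Most of the summed level of the adrenergic markers came from CHGA and from CHGB, another granin gene, which was at 7760 ± 243 and 13400 ± 97.2 CPM. The part of either in the results on the AP-1 genes was not tested.

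After transcription, FOS and JUN are limited by rapid decay of their mRNAs and proteins. Among 21 genes acting on AU-rich elements, the decay signals of these mRNAs, 11 rose and 4 fell, with a median of 0.13. With the GC and length correction 3 rose and 7 fell, so the balance of this list turned. Over all 15829 genes 3582 rose and 3962 fell with that correction. CNOT8, a deadenylase gene, rose 1.33-fold and ELAVL3, a neuronal RNA-stabilising protein gene, 1.22-fold. HNRNPD, which encodes AUF1, fell 1.39-fold (3150 ± 156 to 2270 ± 29.6 CPM, edgeR adjusted p = 7.93e-11), and the exosome gene EXOSC9 fell 1.30-fold. Of 21 regulators of the proteins 11 rose and 5 fell, with a median of 0.11, and with the GC and length correction 8 rose and 7 fell, with a median of 0.00. FBXW7, the ubiquitin ligase subunit that marks phosphorylated JUN for degradation, rose 1.49-fold (26.5 ± 0.356 to 39.3 ± 3.54 CPM, edgeR adjusted p = 6.46e-09), and the SUMO protease gene SENP2 rose 1.53-fold. ITCH, a ligase for JUN proteins, fell 1.39-fold, and the scaffold gene RACK1 fell 1.47-fold.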

How the data were processed

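Stranded mRNA libraries were sequenced as paired reads and, per the submitters' processing notes, GRCh38, HISAT2 and DESeq2 were used. The sources used here give no counting tool, annotation release or strand setting. The authors deposited whole-number read counts per gene (28862 genes, 6 libraries) and FPKM values (28501 genes, 2 decimals). Counts went into edgeR 4.0.16 (R 4.3.3) after filterByExpr and TMM scaling, with a quasi-likelihood fit on group, two-sided, with Benjamini-Hochberg adjustment over 15829 genes and calls at 0.05. Each SE is the size of the log2 fold change divided by the root of its F statistic.

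The alternatives were DESeq2 1.42.0, limma-voom (limma 3.58.1), other scaling factors and filters, the replicate number as a block, each library left out, limma on log2(FPKM + 0.1) and log2(FPKM + 1), and splines on GC content and length from GENCODE v29, known for 99.0% of tested genes. Shares per base of the longest transcript were added after seeing the data. The fits were tested on simulated data.

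The members and lists were chosen with earlier results of these data known. Named genes are the members, SMN1, up to 2 called higher and 2 lower per list by p at 5 CPM or more, the 3 nearest profiles to FOS, FOSB and JUN, and the neighbours. Of 214 list entries 205 were in the table. Protein sequences were not used here. No libraries of a group were as alike as counting noise allows (chi-square over degrees of freedom 2.42 to 4.15). Intervals of counts cover counting error only.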

Additional observations from a re-analysis of the deposited data

How the results depend on the processing

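The 6 decreases and 1 increase of the family kept direction and side of the threshold under all 17 alternatives run. Genes called lower numbered 4466, and 2963, 2965 and 2883 on log2(FPKM + 0.1), log2(FPKM + 1) and log2(FPKM + 1) without a filter, where 62.6%, 62.6% and 61.9% of calls were higher against 49.8% on counts. The cause was not tested. Leaving out 1 library gave 3965 to 4335 genes called higher and 4049 to 4346 called lower, 65 to 70 list genes higher and 48 to 55 lower, and a FOS class share of 14.8 to 15.0% and 4.97 to 5.37%. Per base of the longest transcript that share was 19.5% for the controls against 6.09%.

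With the replicate number as a block (replicate block), 4326 genes were higher and 4382 lower, and FOS was at -3.40. Same-numbered libraries did not deviate together (r = 0.00528, 0.0133 and 0.003). The sources used here do not say whether the numbers pair them, and these values alone do not decide it. Signs reversed for 6 neighbours: RTN2 was at 0.21 with the GC and length correction and 0.05 in each of the 3 fits on FPKM, C11orf68 at 0.11, MYSM1 at -0.14 and GET3 at 0.05 with the correction, and PHBP3 at -0.03 without the first control library (-0.03 to 0.23 over the libraries left out). IQCN was at 0.01 with DESeq2, 0.02 without a filter on counts or on FPKM, 0.07 with the correction, and 0.06, 0.07 and 0.08 without the third control, first or second SMN1-labelled library (-0.15 to 0.08 over the libraries left out). Of 1047 values for 62 named genes, 1018 kept direction and side. Counts per kilobase of the authors' own length could give no other shares than FPKM and were not run. FOSB, at 17 to 25 reads per SMN1-labelled library, is the member that depth limits most.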

Other observations

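Among markers of other cell types, 3 of 4 epithelial genes tested were called lower, all of them keratin genes, against 28.2% of all genes tested. KRT18, a simple epithelial keratin, fell from 15.1 ± 0.644 to 5.68 ± 0.133 CPM, KRT8, its partner, from 3.22 ± 0.550 to 0.991 ± 0.0215 CPM and KRT19 from 6.45 ± 0.649 to 3.09 ± 0.530 CPM, all named after their values were seen. EPCAM, the epithelial adhesion gene, was at 2.56 ± 0.377 and 2.13 ± 0.192 CPM and was not called, and CDH1 had 1 to 6 reads per library. Of 4 fibroblast markers tested 2 were called lower, the fibrillar collagen genes COL3A1 (65.9 ± 2.16 to 25.6 ± 0.119 CPM) and COL1A1 (21.7 ± 1.33 to 7.44 ± 1.28 CPM). PDGFRB stood at 30.9 ± 0.625 and 30.04 ± 1.20 CPM and LUM at 0.58 ± 0.316 and 0.767 ± 0.24 CPM, neither of them called. Of 4 Schwann cell markers tested 3 were called lower, among them S100B (2.26 ± 0.298 to 0.962 ± 0.0578 CPM). Of the blood markers PTPRC, CD68 and LYZ none had more than 2 reads in a library.

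LINC01135, a long non-coding RNA gene beside JUN, had 1, 5 and 2 control reads against 0, 1 and 0, too few to test. FLJ31356, antisense to FOSL2, had at most 1 read in any library.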
